A study of Rattus norvegicus with 22 samples.

Results

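RNA levels in ventral cord of the neck were compared between intact male rats, which keep their testes, and intact female rats, which keep their ovaries. The members are the libraries whose count columns carry the intact prefixes, 5 of intact males and 6 of intact females, which makes 11 of the 22 libraries of the series. The study asked how sex and removal of the gonads relate to gene expression in the cord region that holds the phrenic motor neurons, with 1 RNA library per rat. All rats were young adult Sprague-Dawley rats of 3 to 4 months, anesthetized and perfused with cold saline, and the ventral part of segments C3 to C6 was kept. The intact groups had no surgery. The other 11 rats, 5 castrated males (GDX) and 6 ovariectomized females (OVX), were sampled 2 weeks after surgery and are used here beside the intact rats. The labels number the intact males 1, 2, 3, 5 and 6 and the intact females 1 to 6. Time of day at tissue collection and the stage of the estrous cycle are not given in the sources used here. Each library holds counted reads per gene, 13008232 to 15558910 in the intact males and 13374274 to 17530586 in the intact females. The study's sample table gives an average input fragment size for each library, and these sizes fall into 2 separate ranges, called the shorter and the longer class here. Intact males 2 and 5, intact females 1 and 4 and every GDX and OVX library are in the shorter class, and intact males 1, 3 and 6 and intact females 2, 3, 5 and 6 are in the longer class.

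Testes and ovaries release androgens, estrogens and progesterone, which enter the spinal cord from blood and act through nuclear receptors that bind DNA and through receptors at the membrane. The ventral cervical cord holds the motor neurons of the diaphragm with the interneurons, glia, vessels and meninges around them, and steroid receptors are found in many of these cells. Apart from hormones, the sexes differ in their sex chromosomes. Males have genes on the Y chromosome, and some X-linked genes escape inactivation on the inactive X of females and so are read from both copies there.

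The sex labels were checked against Y-linked genes. Kdm5d, a histone demethylase of the Y chromosome, was at 35.2, 30.6, 35.8, 35.5 and 35.2 CPM (counts scaled to the library's size) in intact males 1, 2, 3, 5 and 6 and at 0 in every intact and OVX female. Eif2s3y, a translation initiation factor subunit, was at 41.7, 37.2, 47.4, 36.1 and 42.2 CPM in the same males and at 0 in every female. A row named Ddx3 (ENSRNOG00000057231) was at 91.1, 82.3, 96.6, 85.2 and 94.9 CPM in these males and at 0 in the females. Every library labelled male thus had Y-linked counts and no library labelled female had any of these 3 genes. A count of 3, taken as the floor per library, is 0.171 to 0.231 CPM in the intact rats. Genes at 0 in every intact library of a sex were left out of the test by the rule. Those were 1024 genes at 0 in the females and 1353 at 0 in the males, nearly all of low count, and 8 of them would have passed the filter on low counts. The 2 of these at 0 in males were AABR07039356.2, at 90.3 to 98.9 CPM in intact females, and Gm27733, at 10.0002 to 12.04 CPM, and both were also at 0 in every GDX male. The Y-linked list left 1 gene to test, a second Ddx3y row at 0.302 to 1.71 CPM in males and 0.435 to 1.07 in females, which edgeR did not call, and neither did DESeq2 nor an unadjusted p under 0.05 (0 genes each). Paralogs such as the Ddx3 and Eif2s3 pairs share sequence, and the counting settings that would split their reads are not given, so single paralog values are uncertain.

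The tissue label was checked against markers of ventral cord and of its neighbours. Chat, the enzyme that makes acetylcholine in motor neurons, was at 35.3 to 52.5 CPM in males and 34.1 to 60.4 in females, and Mbp, of central myelin, at 10678 to 12854 and 11157 to 13722. Of the dorsal horn genes, whose sum was 322 to 335 CPM in males and 294 to 311 in females, Calb2 made up the most at 153 to 175 and 133 to 147, while some markers were near 0, with Tlx3 at 0 to 0.0738 and 0 to 0.435 CPM, Grp at 0 to 0.0657 and 0 to 0.226, and Lmx1b at 0.0619 to 0.0755 and 0.0621 to 1.41, the highest of them in intact female 1. The dorsal root ganglion and peripheral neuron genes summed to 379.8 to 531 CPM in males and 382 to 488 in females, most of it Tubb3, a tubulin of all neurons, while Scn10a and Prdm12, of sensory ganglion neurons, did not pass 0.557 CPM in any intact rat. Cd3e of T cells reached at most 0.0753 CPM, S100a8 of neutrophils 0.423 and Alas2 of red cell precursors 0.733. Acta1 of skeletal muscle was at 3.24, 18.7, 3.47, 3.03 and 2.23 CPM in the males, high in male 2, and at 2.42 to 6.93 in the females. Depth did not separate the sexes. Library totals averaged 14294181 in males and 15069079 in females (exact two-sided permutation test over 462 splits, p = 0.368, n = 5 and 6). Genes at 1 CPM or more numbered 14139 ± 103 in males and 14173 ± 75.3 in females (SD, exact permutation p = 0.563), and the gene with the most counts, AY172581.24, took 14.2% ± 0.923 and 14.4% ± 1.79 of counts (exact permutation p = 0.853).

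Of the genes called between intact males and females, more were lower than higher in males. Of 14929 genes tested, 589 differed at an adjusted p under 0.1 (3.95%), of which 380 were lower in males (2.55%) and 209 higher (1.4%). Lower genes made up 64.5% of the calls and had larger differences. Their median log2 fold change, males minus females, was -0.57, and 106 of them were past -1. Higher genes had a median of 0.23, and 11 were past 1, while the median over all tested genes was 0.00. At an adjusted p under 0.05 the count was 321 (97 higher and 224 lower), and without adjustment 2308 passed 0.05 (1085 higher and 1223 lower). The counts depended on single rats. The total was 335 without intact male 1, 377 without male 5 and 387 without female 5. The count of higher genes was 96 without male 1, 129 without male 2, 122 without male 5, 137 without female 4, 128 without female 5 and 133 without female 6, and that of lower genes was 239 without male 1. Within the longer fragment class (3 males and 4 females) 335 genes were called, 83 higher and 252 lower, and within the shorter class (2 and 2) 23 were called, 8 higher and 15 lower. The class was itself tested with sex as a term, and 1 gene was called (0.0067%, edgeR, with 1149 at an unadjusted p under 0.05). That gene count was 2 without male 1 or male 5 and 0 without any other rat except male 6.

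Among the 10 genes higher in males with the smallest adjusted p, log2 differences ran from 0.19 (Nsf) to 0.60 (Polr3k). Cdk5rap2, a centrosome protein of dividing and differentiating cells, was at 90.0, 89.6, 89.6, 89.5 and 90.8 CPM in the males, against a lowest, median and highest value of 68.9, 74.1 and 77.5 in the females. All 5 males lay above every female, and the males differed among themselves by little more than 1 CPM (log2 fold change 0.28, SE 0.0365, adjusted p 0.00145). Nsf, the ATPase that takes apart used SNARE complexes so that synaptic vesicles can fuse again, was at 699.6, 689, 647, 663 and 678 CPM in males and 583, 595 and 601 in females. The females lay close together and below all males (log2 fold change 0.19, SE 0.0313, adjusted p 0.00770). Myt1, a zinc finger factor of the oligodendrocyte and neuron lineages, was at 46.1 to 50.4 CPM in males and 38.6 to 43.3 in females (log2 fold change 0.29, SE 0.0430, adjusted p 0.00326). The males also lay above all females for Srgap2, Fcho1, Pcdh9, Lime1, Pcdh15, Adpgk and Polr3k. Of these, the cell adhesion genes Pcdh9 and Pcdh15 differed by 0.23 and 0.32 on the log2 scale. Polr3k, a subunit of RNA polymerase III, was at 14.9, 16.4, 16.9, 16.04 and 17.7 CPM in males and 8.01, 11.5 and 12.5 in females (log2 fold change 0.60, SE 0.102, adjusted p 0.00881). All 10 genes were called in each of the 11 fits that left out 1 intact rat. The 10 were picked by the smallest adjusted p of this same test. Their lack of overlap and repeated calls follow in part from that choice.

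The 10 genes lower in males with the smallest adjusted p included 4 X-linked genes, described next, and genes of signalling, structure and sulfation. Net1, an exchange factor that activates the small GTPase RhoA, was at 17.8, 17.1, 14.3, 16.5 and 13.3 CPM in males and 26.8, 33.2 and 40.9 in females. Every male lay below every female, and males 3 and 6 were lowest (log2 fold change -1.08, SE 0.114, adjusted p 0.000304). Ppl, a desmosome protein, was at 5.85 to 8.67 CPM in males and 11.5 to 14.995 in females (log2 fold change -0.88, SE 0.107, adjusted p 0.00101). Sult1a1, a phenol sulfotransferase, was at 1.27, 1.18, 1.96, 1.36 and 1.51 CPM in males and 3.09, 4.62 and 5.74 in females (log2 fold change -1.60, SE 0.202, adjusted p 0.00132). The sexes did not overlap for either gene. LOC680227, a locus with no assigned function in the table, was at 0.141, 0.148, 0.0755, 0.433 and 0.197 CPM in males, near the floor in most, and 3.16, 3.83 and 4.60 in females (log2 fold change -4.14, SE 0.295, adjusted p 3.70e-06). A row named U1 (ENSRNOG00000059367), from the multi-copy family of U1 spliceosomal RNA, was at 0.4932, 0.295, 0.0755, 0.0619 and 0.328 CPM in males and 0.870, 7.60 and 18.1 in females (log2 fold change -5.11, SE 0.670, adjusted p 0.00150). Female 4, at 0.870 CPM, was the lowest female by far and still above the males. Counts of such a family cannot be assigned to a single copy, so its value is uncertain. For LOC680227 and U1 most males' counts lie near or under the floor, so the fitted fold changes depend on the prior count and are no bound. The SE of these 2 genes is derived from those fold changes and is no measure of their precision. These 10 genes were also called in all 11 fits with 1 rat left out. As they too were picked by the smallest adjusted p, this and the separation of the sexes follow in part from that choice.

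Among X-linked genes that escape X inactivation or have a Y partner in other mammals, some were clearly lower in males and others were not called. Of 13 tested, 5 were lower and 1 was higher (46.2%, against 3.95% of all tested genes), with a median log2 fold change of -0.21. The median was -0.14 without male 1 and -0.32 without male 2. It was -0.11 within the shorter class, where 2 were called, both lower. Eif2s3, the X-linked partner of Eif2s3y, was at 81.1, 75.6, 85.6, 73.9 and 83.9 CPM in males and 117, 126 and 133 in females. The lowest female lay well above the highest male (log2 fold change -0.65, SE 0.0476, adjusted p 3.70e-06). Ddx3x, an RNA helicase, was at 261, 255, 283, 259 and 279 CPM in males and 338, 352 and 362 in females, with no overlap (log2 fold change -0.39, SE 0.0377, adjusted p 0.000107). The histone demethylases Kdm6a and Kdm5c were at 21.6 to 25.7 and 49.6 to 56.6 CPM in males and 30.8 to 42.9 and 61.2 to 73.6 in females. Again all males were below all females, by -0.67 (adjusted p 0.000682) and -0.34 (adjusted p 0.00427) on the log2 scale. Pbdc1 was at 20.8, 16.4, 18.8, 18.3 and 16.3 CPM in males and 24.2, 28.7 and 29.9 in females (log2 fold change -0.62, SE 0.0755, adjusted p 0.00101). All 5 genes were also lower in GDX males than in OVX females, by -0.57, -0.34, -0.53, -0.35 and -0.61 in the same order, each at an adjusted p under 0.1. In intact rats Rlim was the 1 higher member, and the other 7 were not called. Usp9x, a deubiquitinase, had 429 to 482 CPM in males and 427 to 457 in females, and Uba1, Zfx, Med14 and Taf1 had log2 fold changes of 0.04, -0.11, 0.02 and -0.01. The other 2, Shroom4 and Mid1, were at -0.21 and -0.41 (adjusted p 0.41 and 0.509). Rlim, an E3 ubiquitin ligase, was at 2.04, 3.91, 1.89, 1.67 and 9.78 CPM in males and 0.534, 0.853 and 1.66 in females (log2 fold change 2.00, SE 0.465, adjusted p 0.0341). All males were above all females, and male 6 was far above the others, with a log2 fold change of 1.29 without male 6 (adjusted p 0.0786). In gonadectomized rats Rlim spanned 0.633 to 1.56 CPM in males and 0.468 to 9.18 in females (log2 fold change -1.07, adjusted p 0.63), and female 3 of the OVX group was the high value there.

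**Figure D1:**
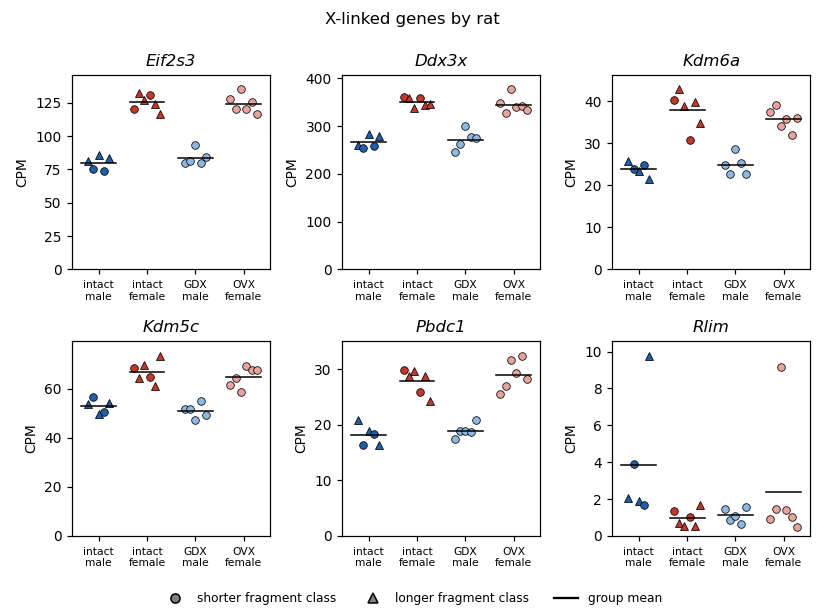
CPM of 6 X-linked genes in each of the 22 rats, by sex and gonads, with circles for the shorter and triangles for the longer fragment class and a line at each group's mean. Intact males sit below intact females for 5 genes, as at Eif2s3 with 73.9 to 85.6 against 117 to 133 CPM, and above them for Rlim.

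Of 13 steroid receptor genes tested, 1 was called (7.69%, against 3.95% of all tested genes), Paqr6, a membrane progesterone receptor, at 57.1, 58.7, 59.8, 61.6 and 66.5 CPM in males and 51.0, 53.8 and 57.9 in females. Male 1 lay below the highest female, female 2, and the other males lay above all females (log2 fold change 0.18, SE 0.0467, adjusted p 0.0585). With 1 rat left out, Paqr6 was called in 5 of 11 fits, and its adjusted p was 0.127 without male 5, 0.135 without male 6, 0.101, 0.116, 0.107 and 0.122 without females 3, 4, 5 and 6. The estrogen receptors were low in counts, with Esr1 at 1.28 to 1.58 and 1.30 to 2.03 CPM and Esr2 at 2.23 to 4.68 and 3.24 to 4.47. Neither the estrogen receptors nor Pgr, the nuclear progesterone receptor at 4.83 to 6.27 and 4.27 to 5.798 CPM, passed the test, and the ranges of the sexes overlapped for all. The same held for the mineralocorticoid receptor Nr3c2, the thyroid receptors Thra and Thrb and the membrane components Pgrmc1, Pgrmc2, Paqr7 and Paqr8, with log2 fold changes from -0.05 to 0.06. The membrane estrogen receptor Gper1 was at -0.26 (adjusted p 0.679).

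Genes that make or break down steroids within the cord gave 0 calls among 13 tested by edgeR, with 1 at an unadjusted p under 0.05 and 1 by DESeq2, and a median of 0.01. In steroid synthesis and metabolism the median ran from -0.06 without male 5 to 0.03 without female 2, and 1 gene was lower without female 1 or female 2. Aromatase, Cyp19a1, which makes estradiol from testosterone, had counts in 1 intact female alone (0.113 CPM), and Cyp17a1 and Cyp11a1 did not pass 0.226 CPM in any intact rat. At this depth such genes could not be compared. Srd5a1, a 5-alpha reductase that acts on testosterone and progesterone, was at 48.3 to 54.8 CPM in males and 39.5 to 51.9 in females, and Cyp7b1, which hydroxylates neurosteroids, at 36.7 to 44.0 and 32.8 to 41.3. Akr1c14, the 3-alpha hydroxysteroid dehydrogenase, was at 1.13, 1.03, 0.754, 1.30 and 0.722 CPM in males and 0.898, 2.17 and 3.70 in females. Females 3 to 6 lay above all males and females 1 and 2 among them, and the difference did not pass the test (log2 fold change -1.11, adjusted p 0.114).

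Across 42 gene lists, counts and medians were set beside those of all tested genes. Lists with the largest share lower in males were those of meninges and fibroblasts, glucocorticoid response, root myelin and the circadian clock. Of all tested genes 1.4% were higher and 2.55% lower. Lists of neuronal transmission and channels had medians slightly above 0. No list's median changed sign under the other scaling factors or DESeq2. With 1 rat left out, the medians of steroid synthesis and metabolism, neurotrophins, oligodendrocyte precursors, microglia, ependyma, muscle and fat, antigen presentation and nuclear oxidative phosphorylation genes changed sign in at least 1 fit. Within a single fragment class those of steroid receptors, astrocytes, endothelium, pericytes and dorsal horn also did.

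**Figure D2:**
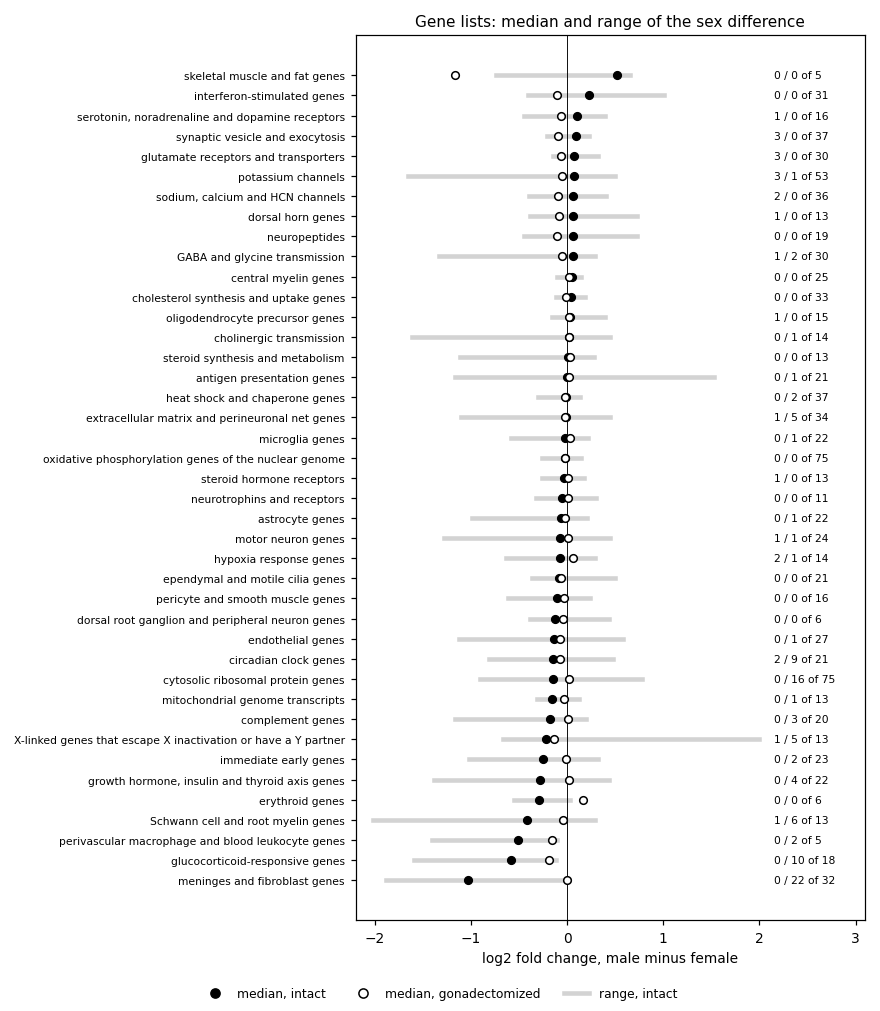
Median log2 fold change, males minus females, of 41 gene lists with 5 or more tested genes, in intact rats (filled) and gonadectomized rats (open), with the range over the list's genes in intact rats as a bar and the counts called higher and lower of those tested at the right. The meninges and fibroblast list sits at -1.03 in intact and 0.00 in gonadectomized rats, and the Y-linked list, with 1 tested gene, is not drawn.

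Genes of the meninges and fibroblasts, the collagen-rich sheets around the cord, were lower in intact males. Of 32 tested, 22 were lower and 0 higher (68.8%, against 3.95% of all tested genes), with a median log2 fold change of -1.03. At an unadjusted p under 0.05 the counts were 28 and 0. In bulk tissue, fewer cells of a type and less RNA per cell cannot be told apart. The list's summed level was 1263, 979, 1092, 970.2 and 862 CPM in males 1, 2, 3, 5 and 6, and 1239, 1218, 1782, 2188, 1905 and 1936 in females 1 to 6. Females 3 to 6 lay above every male, and females 1 and 2 lay within the males' range, just below male 1. Ptgds, a prostaglandin D synthase and the member with the most counts, was at 473, 321, 342, 312 and 274 CPM in males and 434, 718 and 943 in females (log2 fold change -0.97, SE 0.182, adjusted p 0.0138). Among the defining markers, Slc22a6, an organic anion transporter, was at 1.41, 1.03, 0.754, 0.495 and 0.591 CPM in males and 1.92, 2.44 and 4.13 in females (log2 fold change -1.61, SE 0.291, adjusted p 0.0116). Dcn, the proteoglycan decorin, was at 9.09, 14.3, 19.6, 7.55 and 6.63 and 18.3, 23.1 and 35.7 CPM (log2 fold change -1.16, SE 0.243, adjusted p 0.0222). Male 3 lay above the lowest female for Dcn, and the sexes did not overlap for Slc22a6. Col1a1, of fibrillar collagen, was at 15.9 to 63.1 CPM in males and 26.9 to 121 in females and did not pass the test (log2 fold change -1.23, adjusted p 0.121). None of the 3 was at 0 in any intact rat. Other called members were Col5a1 (-0.72, adjusted p 0.00181), Col6a2 (-0.79, adjusted p 0.0114), Cemip (-1.30, adjusted p 0.00989), which degrades hyaluronan, and Slc6a13 (-1.34, adjusted p 0.00561), a GABA and taurine transporter. For Col5a1 the males were at 29.4, 26.4, 29.7, 28.9 and 21.3 CPM and the females at 35.4, 45.7 and 50.6, without overlap. The median was -1.07 within the longer class (12 called) and -1.03 within the shorter class (1 called), and the count ranged from 16 without male 5, male 6 or female 5 to 27 without female 1. In gonadectomized rats the list's median was 0.00. Whether the amount of meninges kept with the cord moves other genes was not tested.

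Schwann cell and root myelin genes, of the nerve roots, had 6 lower and 1 higher of 13 tested, with a median of -0.41. This is 53.8% called, against 3.95% of all tested genes. Prx, a protein of Schwann cells, was at 5.35, 3.39, 10.1, 2.54 and 2.23 CPM in males and 7.78, 13.1 and 19.6 in females. Males 5 and 6 were lowest, and male 3 alone lay inside the females' range (log2 fold change -1.50, SE 0.334, adjusted p 0.0280). Pmp22 and Mpzl2 were also lower, by -0.37 and -0.67, and Sox2, a factor of progenitors and glia, was higher by 0.29 (adjusted p 0.0185). The summed list was at 357, 325, 383, 334 and 366 CPM in males and 386 to 460.5 in females, and Pllp, the member with the most counts, did not differ (log2 fold change -0.05). Of 5 perivascular macrophage and blood leukocyte genes tested, 2 were lower (40%). Mrc1, the mannose receptor of perivascular macrophages, was at 7.96, 8.19, 5.28, 6.25 and 4.20 CPM in males and 7.61, 11.3 and 12.8 in females (log2 fold change -0.76, SE 0.167, adjusted p 0.0257), and Cd163, the haemoglobin scavenger receptor, at 1.27, 3.25, 1.74, 1.24 and 0.722 and 2.54, 4.54 and 5.60 (log2 fold change -1.40, SE 0.303, adjusted p 0.0251). The lowest female in each case was female 1, within the males' range. Cd4, the member with the most counts, did not differ (-0.10), and the summed list was at 25.2 to 36.8 CPM in males and 37.7 to 46.8 in females.

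The share of endothelial genes called, 3.70%, was near the 3.95% of all tested genes, and the medians of the vessel lists had opposite signs in the fragment classes. For endothelial genes these were -0.31 in the longer and 0.16 in the shorter class, and for pericyte and smooth muscle genes -0.21 and 0.14. Of 27 endothelial genes, 1 was lower, Cdh5, the cadherin of endothelial junctions, at 9.58, 9.67, 10.4, 8.73 and 6.83 CPM in males and 12.2, 20.1 and 24.8 in females, without overlap (log2 fold change -1.13, SE 0.159, adjusted p 0.00266). Cldn5, the tight junction claudin of brain and cord vessels, was at 17.0 to 24.5 and 13.7 to 36.8 CPM, with the extremes in females 4 and 5 (log2 fold change -0.11, adjusted p 0.84). The list's median was -0.13, at -0.22 without female 4 and -0.05 without female 5, and of endothelial genes 2 were lower without females 1 or 6 and 1 was higher without males 1 or 3 or females 1 or 3. Of 16 pericyte and smooth muscle genes edgeR called 0, with 3 at an unadjusted p under 0.05, all lower, and 0 by DESeq2 (median -0.10). The median was -0.06 without male 1, -0.05 without male 6 and -0.04 without female 3 or female 5, and 2 of the pericyte and smooth muscle genes were lower without male 3 and 1 without male 5. Of 6 erythroid genes 0 were called by edgeR or DESeq2 and 0 had an unadjusted p under 0.05. The median of the erythroid genes was -0.29, and it was -0.66 without male 1, -0.51 without female 2, -0.16 without male 3, -0.18 without male 5, -0.19 without female 1, -0.08 within the longer class and -0.77 within the shorter class. The list's sum was at 82.5 to 99.9 CPM in males and 76.8 to 108 in females after saline perfusion.

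**Figure D3:**
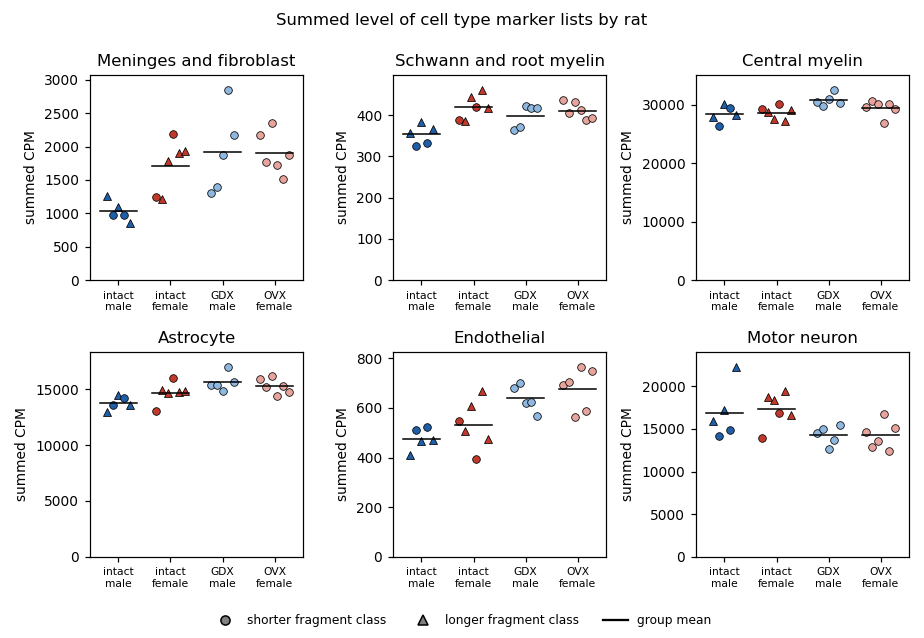
Summed CPM of 6 cell type marker lists in each of the 22 rats, by sex and gonads, with circles for the shorter and triangles for the longer fragment class and a line at each group's mean. The meninges and fibroblast list is at 862 to 1263 CPM in intact males and 1218 to 2188 in intact females, and reaches 2846 in a GDX male.

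Glucocorticoid-responsive genes, which the adrenal steroid corticosterone induces in rats, were lower in intact males. Of 18 tested, 10 were lower and 0 higher (55.6%, against 3.95% of all tested genes). All 18 had a log2 fold change below 0, and the median was -0.58. The list was chosen with earlier results of these data known, so its common direction is a description and no independent support. Its member Sult1a1 is also among the 10 lower genes given above, and Per1 is also on the clock list. The summed list of glucocorticoid-responsive genes was at 319, 337, 342, 341 and 347 CPM in males, and at 334, 683, 596, 378, 554 and 447 in females 1 to 6. The males were uniform, while females 1 and 4 were near them and females 2, 3 and 5 were highest. Nfkbia, the inhibitor of NF-kappa-B, was at 10.3, 11.3, 11.997, 10.4 and 9.39 CPM in males and 14.5, 19.1 and 29.1 in females, with no overlap (log2 fold change -0.92, SE 0.162, adjusted p 0.0109). Fam107a, an actin-binding stress response protein, was at 9.93, 12.4, 15.01, 12.6 and 11.4 CPM and 13.2, 18.8 and 21.1 (log2 fold change -0.55, SE 0.117, adjusted p 0.0232). For Fam107a, female 1 lay among the males. The other called members were Sult1a1, Per1, Sgk1, Klf9, Fkbp5, Zbtb16, Plin4 and Dusp1, from -0.37 (Klf9) to -1.60 (Sult1a1). Tsc22d3, the member with the most counts, did not pass the test (-0.12, adjusted p 0.517). Females 1 and 4 are the intact females of the shorter fragment class. Within the longer class 12 members were called with a median of -0.85, and within the shorter class 0 were called by edgeR with a median of -0.07. With class as a term the count was 11, by DESeq2 10, and at an unadjusted p under 0.05 15, and without intact male 1 it was 5. A test of whether the sex difference depends on class, added after the data were seen, called 8 genes of 14929, with Per1 among them (-1.16, adjusted p 0.0276). In gonadectomized rats, all of the shorter class, 1 of the 18 was called, Sgk1, and the median was -0.18. The part of the fragment class in these differences was not tested beyond these fits.

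Circadian clock genes differed between intact males and females in both directions. The clock runs through a loop in which BMAL1 (gene Arntl) and its partners CLOCK or NPAS2 bind E-box elements and drive Per, Cry and Nr1d genes, whose proteins in turn repress the loop, and output genes such as Dbp. Of 21 tested, 9 were lower and 2 were higher in males (52.4%, against 3.95% of all tested genes), and the median was -0.15. Dbp, a clock output factor that binds D-box elements, was at 37.6, 35.2, 42.3, 35.3 and 31.5 CPM in males and 52.6, 58.3 and 76.5 in females. All males lay below all females, and female 6 was highest (log2 fold change -0.72, SE 0.0904, adjusted p 0.00132). Per3 was at 55.2, 50.5, 50.4, 45.6 and 47.2 CPM in males and 58.4, 67.1 and 72.6 in females, also without overlap (log2 fold change -0.41, SE 0.0586, adjusted p 0.00310). Nr1d1, the repressor REV-ERB alpha, was at 30.4, 34.5, 27.6, 31.9 and 25.8 and 36.1, 37.7 and 41.8 CPM (log2 fold change -0.36, SE 0.0697, adjusted p 0.0171). Again the sexes did not overlap. Arntl went the other way, at 25.2, 22.5, 25.3, 26.8 and 27.1 CPM in males and 13.8, 18.8 and 21.3 in females, with every male above every female and female 6 lowest (log2 fold change 0.48, SE 0.0932, adjusted p 0.0163). Per1 was at 18.3, 23.02, 21.1, 23.7 and 20.5 CPM in males and 23.1, 40.4 and 49.6 in females (log2 fold change -0.81, SE 0.183, adjusted p 0.0301). Females 1 and 4, of the shorter class, were level with the males for Per1, and its log2 fold change was -1.15 within the longer class and 0.00 within the shorter class. The same within-class values were -0.76 and -0.61 for Dbp, -0.43 and -0.34 for Per3, -0.48 and -0.18 for Nr1d1 and 0.51 and 0.44 for Arntl. Within the longer class 6 clock genes were lower and 1 higher, and within the shorter class 1 was lower and 0 higher. The remaining calls were Per2 (-0.43, adjusted p 0.0447), Nr1d2 (-0.34, adjusted p 0.0227), Ciart (-0.42, adjusted p 0.0700), Tef (-0.21, adjusted p 0.0287), Bhlhe40 (-0.21, adjusted p 0.0607) and Npas2 (0.26, adjusted p 0.0966). Clock, Cry1, Cry2 and the kinases Csnk1d and Csnk1e did not pass the test, with values from 0.02 to 0.11. Leaving out 1 rat left 7 to 9 lower and 1 to 2 higher calls, and 1 higher call remained without males 1, 2, 3 or 5 or females 1, 3, 5 or 6. In gonadectomized rats 0 of the 21 clock genes were called higher and 0 lower, with a median of -0.07. The hour of tissue collection is not given for any rat. A difference in hour between the groups thus cannot be told apart from a sex difference in clock genes.

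**Figure D4:**
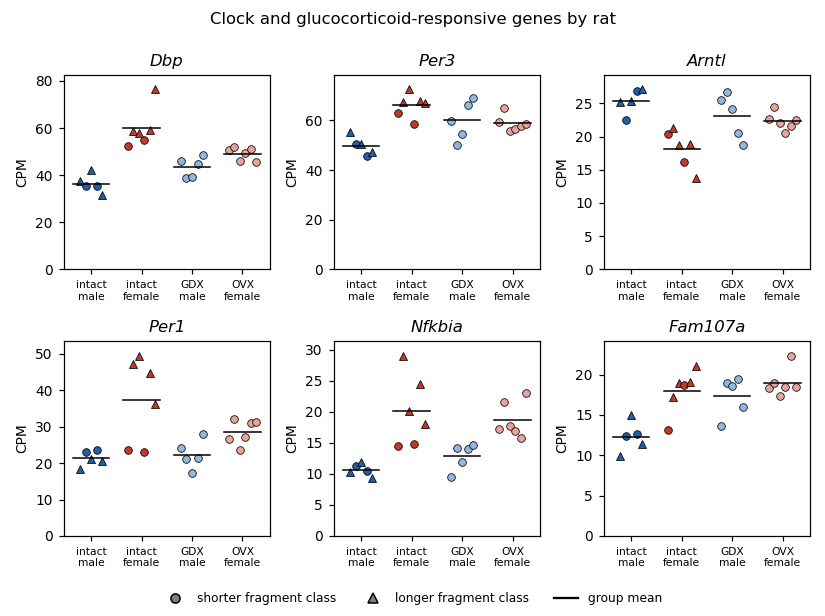
CPM of 6 clock and glucocorticoid-responsive genes in each of the 22 rats, by sex and gonads, with circles for the shorter and triangles for the longer fragment class and a line at each group's mean. Dbp is at 31.5 to 42.3 CPM in intact males and 52.6 to 76.5 in intact females, and for Per1 the intact females split into 23.1 and 23.6 CPM in the shorter class and 36.1 to 49.6 in the longer class.

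Because 11 of the 21 clock genes were called, the 250 bases before their start sites were searched for elements of the loop. The sequences are from RefSeq (build GRCr8), and 10814 of the 14929 tested genes and 18 of the 21 clock genes had one. The E-box CACGTG was in 5.59% of all 33469 promoters. Shares of genes count a gene if any of its promoters holds the element, so they are not in the same unit as shares of promoters. By gene, the E-box was found for 8.51% of tested genes, 5.13% of genes higher in males and 8.87% of genes lower in males. Among the 18 clock genes 5 held it, Ciart, Tef, Bhlhe40, Nr1d1 and the uncalled Bhlhe41. The D-box, TTA and GTAA around any base, was in 2.04% of all promoters and found for 1.31% of tested genes. Of the 18 clock genes 1 held it, Per2. The ROR element (RORE), to which REV-ERB proteins also bind, was in 0.317% of all promoters. It was found for 0.129% of tested genes and for 1 clock gene, Arntl. The glucocorticoid response element is 2 inverted copies of GNACA around any 3 bases. It was in 0.373% of all promoters and found for 0.240% of tested genes. Of 17 matched glucocorticoid-responsive genes 1 held it, Fam107a, and 2 held an E-box, Dusp1 and the uncalled Mt2A. Both strands were searched, the 4 elements were counted separately, and a match describes letters only and shows no binding. The matches of the called clock genes and the response element of Fam107a are shown, as the elements of the loop and of glucocorticoid action, with the bases on each side, each on its gene's strand, and with the element in capitals.
Ciart chr2:186112247-186112359 minus strand: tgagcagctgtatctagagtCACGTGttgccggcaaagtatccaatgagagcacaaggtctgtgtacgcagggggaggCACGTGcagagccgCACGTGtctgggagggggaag
Tef chr7:115206609-115206654 plus strand: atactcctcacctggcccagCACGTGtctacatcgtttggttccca
Bhlhe40 chr4:143174210-143174255 plus strand: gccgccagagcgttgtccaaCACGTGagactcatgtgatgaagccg
Nr1d1 chr10:84229620-84229665 minus strand: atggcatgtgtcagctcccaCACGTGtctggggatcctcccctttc
Per2 chr9:99497158-99497205 minus strand: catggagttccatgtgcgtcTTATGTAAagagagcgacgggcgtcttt
Arntl chr1:176766288-176766327 plus strand: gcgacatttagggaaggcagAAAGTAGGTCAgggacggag
Fam107a chr15:19046351-19046403 plus strand: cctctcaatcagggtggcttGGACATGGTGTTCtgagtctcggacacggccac
Ciart, lower in males, holds 3 E-boxes in this stretch, and Tef, Bhlhe40 and Nr1d1, also lower, hold 1 each. Arntl, higher in males, holds a RORE. Dbp, Per1, Per3, Nr1d2 and Npas2, also called, gave no match to any of the 4 elements. Whether an element goes with the direction of a difference was not tested.

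Of 24 motor neuron genes tested, 1 was higher and 1 lower (8.33%, against 3.95% of all tested genes), with a median of -0.07. The median of motor neuron genes depended on single rats, at -0.20 without male 6, -0.13 without female 1, -0.05 without female 5, -0.04 without male 1 and -0.03 without male 2. Esrrg, a nuclear receptor of gamma motor neurons and interneurons, was at 59.9, 55.6, 58.9, 58.6 and 57.9 CPM in males and 45.5, 47.6 and 55.3 in females, with all males above all females (log2 fold change 0.26, SE 0.0505, adjusted p 0.0173). Aldh1a2, a retinoic acid synthase found in limb motor neurons and in meninges and also on the meninges list, was at 13.5, 7.08, 7.92, 6.19 and 3.35 CPM in males and 7.88, 19.7 and 27.8 in females, with overlap (log2 fold change -1.28, SE 0.321, adjusted p 0.0512). Aldh1a2 was called in 6 of 11 fits with 1 rat left out, with an adjusted p of 0.127 without intact male 5, and calls were also lost without males 2 and 6 and females 4 and 5 (adjusted p 0.11, 0.104, 0.103 and 0.107). The defining markers did not pass the test. Chat had a log2 fold change of -0.10, Slc18a3, the vesicular acetylcholine transporter, -0.12, Isl1 -0.38, Mnx1 -0.15 and Prph, peripherin, -0.33. Male 6 was high for several of them, with Slc18a3 at 50.1, 46.6, 56.1, 46.8 and 78.7 CPM in the males and Prph at 204, 155, 248, 174 and 336, and the summed list was at 15889, 14168, 17199, 14921 and 22289 CPM in males and 13952 to 19448 in females. Nefm, neurofilament medium chain and the member with the most counts, had a log2 fold change of -0.03. Of 14 genes of cholinergic transmission 1 was lower, the nicotinic receptor subunit Chrnb3 at 0.226 to 0.885 CPM in males and 0.622 to 3.33 in females (-1.61, adjusted p 0.0533), which was not called without male 5, male 6 or female 4 (adjusted p 0.109, 0.122 and 0.102). The median of cholinergic transmission was 0.02, and it ran from 0.02 without female 3 to 0.06 without male 2.

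Of 30 GABA and glycine genes 1 was higher and 2 were lower (median 0.06), against 1.4% higher and 2.55% lower of all tested genes. Slc6a5, the neuronal glycine transporter that marks glycinergic neurons, was at 346, 341, 289, 301 and 304 CPM in males and 257, 268 and 279.7 in females. Every male lay above every female, males 1 and 2 by most (log2 fold change 0.24, SE 0.0477, adjusted p 0.0173). In GABA and glycine transmission 2 genes were higher without males 3 or 6 and 3 without female 1, and 1 was lower in every fit with 1 rat left out except those without females 1 or 4. The lower members were the transporters Slc6a13, given with the meninges, and Slc6a11 (-0.15, adjusted p 0.0974, called in 2 of 11 fits and at 0.248 without male 1). Of 30 glutamate genes 3 were higher and 0 lower (median 0.07), with 8 and 1 at an unadjusted p under 0.05. Slc17a6, the vesicular glutamate transporter VGLUT2, was at 97.2, 96.2, 88.6, 93.7 and 80.7 CPM in males and 70.5, 73.3 and 87.0 in females (log2 fold change 0.27, SE 0.0600, adjusted p 0.0277). Female 4 was the highest female and lay above male 6, and the other females lay below all males. Slc17a6 was called in all 11 fits with 1 rat left out. Grin2c was called in 5 of 11 fits with 1 rat left out, with an adjusted p of 0.139 without intact male 5. This gene for an NMDA receptor subunit had a log2 fold change of 0.33, and Grik4, of a kainate receptor subunit, had 0.19 and was called in 3 of 11 fits (adjusted p 0.198 without male 5). The count of higher glutamate receptors and transporters was 1 without males 1 or 5 or females 3, 4 or 5, and 5 without male 3, and 1 gene was lower without female 1. The summed glutamate list was at 2725 to 2872 CPM in males and 2682 to 2844 in females, so the sums overlapped. Of 16 receptors for serotonin, noradrenaline and dopamine, which set motor neuron excitability from the brainstem, 1 was higher (median 0.11), Htr2c at 82.8, 79.6, 74.3, 72.4 and 68.1 CPM in males and 58.3, 64.4 and 73.5 in females (log2 fold change 0.21, SE 0.0604, adjusted p 0.0898). Males 5 and 6 fell within the females' range, and Htr2c was called in 3 of 11 fits with 1 rat left out, with an adjusted p of 0.224 without intact male 1. The median of serotonin, noradrenaline and dopamine receptors was 0.03 without male 1, 0.07 without male 6, 0.05 without female 1 and 0.06 without female 4.

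Of 53 potassium channel genes 3 were higher and 1 lower (7.55%, median 0.07), against 1.4% higher and 2.55% lower of all tested genes. Kcna2, a delayed rectifier of axons beside the nodes, was at 726, 675, 652, 674 and 705 CPM in males and 559.9, 610.3 and 622 in females, without overlap (log2 fold change 0.19, SE 0.0386, adjusted p 0.0210). Kcna2 was called in all 11 fits with 1 rat left out, while Kcnh7 (0.48, adjusted p 0.0771, called in 4 of 11 fits and at 0.195 without male 2) and Kcnj13 (-1.65, adjusted p 0.0550, called in 5 of 11 fits and at 0.140 without male 5) were called in fewer. In potassium channels 1 gene was higher without males 2 or 5 or females 2, 3 or 4, and 2 were lower without male 3. Of 36 sodium, calcium and HCN channel genes 2 were higher (5.56%, median 0.07), Scn1a (0.13, adjusted p 0.0567, called in 5 of 11 fits and at 0.141 without male 1) and Unc80 (0.14, adjusted p 0.0897, called in 1 of 11 fits and at 0.215 without male 1). In sodium, calcium and HCN channels edgeR called 0 higher without males 1, 2 or 6 or females 3 or 6, and 1 without females 1, 2 or 5, against 3 by DESeq2 and 4 at an unadjusted p under 0.05 with all rats. Of 37 synaptic vesicle and exocytosis genes 3 were higher (8.11%, median 0.09), and 11 higher and 1 lower had an unadjusted p under 0.05, with 6 higher and 1 lower by DESeq2. These 3 were Nsf, given above, Unc13a (0.18, adjusted p 0.0778, called in 3 of 11 fits and at 0.193 without male 1) and Snap25, a SNARE of the presynaptic membrane, at 876, 862, 791, 826 and 860.4 CPM in males and 736, 761 and 789.7 in females. Male 3 was the lowest male, just above the highest female (log2 fold change 0.14, SE 0.0353, adjusted p 0.0471), and Snap25 was not called without male 1, male 2 or female 3 (adjusted p 0.125, 0.108 and 0.103). In synaptic vesicle and exocytosis 1 gene was higher without males 1 or 2, and 1 was lower without male 6 or female 1. The summed synaptic list was at 7939, 8156, 7442, 7923 and 7852 CPM in males and 7384 to 7599 in females, with male 3 alone inside the females' range. In gonadectomized rats the medians of the synaptic, potassium and sodium, calcium and HCN channel lists were -0.09, -0.05 and -0.09. Of 13 dorsal horn genes 1 was higher (median 0.07), the calcium-binding Calb2, at 159.6, 153, 166, 153 and 175 CPM in males and 133, 139 and 147 in females, without overlap (log2 fold change 0.21, SE 0.0424, adjusted p 0.0214). For dorsal horn genes the median ran from 0.01 without male 2 to 0.15 without female 1. Of 19 neuropeptide genes edgeR called 0, with 2 higher at an unadjusted p under 0.05 and 0 by DESeq2 (median 0.07), and Penk, the enkephalin precursor, was at 35.7 to 56.3 CPM in males and 28.4 to 51.8 in females. Of 11 neurotrophin and receptor genes edgeR called 0, with 3 at an unadjusted p under 0.05 and 1 by DESeq2 (median -0.06). Leaving out 1 rat gave 1 call in neurotrophins and receptors, lower without female 2 and higher without female 3, and 1 higher call in neuropeptides without female 1. The median of neurotrophins and receptors was 0.03 without male 3, 0.01 without male 5, -0.04 without male 1, -0.01 without female 1, -0.01 without female 5 and -0.01 without female 6, and that of neuropeptides ran from 0.05 without male 2 to 0.15 without female 1.

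For glia of the cord itself, 1 oligodendrocyte precursor gene (6.67%) and 1 astrocyte gene (4.55%) were called, against 3.95% of all tested genes. With 1 call in lists of 15 and 22 genes, these counts are no result about glia. Of 25 central myelin genes edgeR called 0, with 4 at an unadjusted p under 0.05 and 0 by DESeq2 (median 0.05), and 1 of the central myelin genes was lower without female 1. The median was 0.03 without male 5. Mog, of the outer myelin surface, was at 175 to 195 CPM in males and 172 to 183 in females. Of 15 oligodendrocyte precursor genes 1 was higher (median 0.03), Gpr17, a receptor of cells about to form myelin, at 16.1, 18.7, 19.1, 17.1 and 17.4 CPM in males and 10.002, 13.9 and 15.03 in females. All males lay above all females, with female 4 lowest (log2 fold change 0.40, SE 0.0927, adjusted p 0.0354). For oligodendrocyte precursor genes the median was 0.01 without female 1 and -0.01 without female 4, and DESeq2 called 2, both higher. Of 22 astrocyte genes 1 was lower (median -0.06), Vim, vimentin, at 76.5, 60.8, 72.7, 60.4 and 29.5 CPM in males and 77.4, 127 and 155 in females (log2 fold change -0.99, SE 0.212, adjusted p 0.0246). Male 6 was lowest by far, and vimentin is also made by fibroblasts and vessel cells. DESeq2 called 4 lower and 1 higher, and 8 lower and 1 higher had an unadjusted p under 0.05. The median of astrocyte genes was -0.03 without male 1, -0.11 within the longer class and 0.02 within the shorter class. Of astrocyte genes 6 were lower without female 1 and 2 without male 3, and 1 was higher without male 3 or female 2. Gfap, the astrocyte filament and the member with the most counts, was at 2841 to 3248 and 2732 to 3964 CPM (-0.10, adjusted p 0.549), and Aqp4, the water channel of astrocyte endfeet, at 1477 to 1622 and 1362 to 1648. Of 21 ependymal and motile cilia genes edgeR called 0, with 1 at an unadjusted p under 0.05 and 0 by DESeq2 (median -0.08). This median rested on single rats, at 0.04 without male 6, 0.00 without female 1, -0.03 without female 6, 0.00 without male 2, -0.13 without male 3 and -0.18 without male 5. The list's sum was at 189.6 to 285 CPM in males, lowest in male 6, and 241 to 280.0 in females.

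Besides Mrc1 and Cd163, given above, a few immune genes were lower in males, and the shares called of microglia genes (4.55%) and antigen presentation genes (4.76%) were near the 3.95% of all tested genes. Of 22 microglia genes 1 was lower (median -0.02), C1qc, a chain of the complement starter C1q, at 8.595, 8.93, 10.5, 12.6 and 8.997 CPM in males and 12.6, 14.4 and 20.3 in females. Every male lay below every female, male 5 only just (log2 fold change -0.58, SE 0.131, adjusted p 0.0287). Cx3cr1, P2ry12 and Tmem119, the defining markers, had log2 fold changes of 0.21, -0.08 and -0.06 and were not called, and 2 microglia genes were lower without male 3 or female 1. The median of microglia genes ran from -0.01 without female 2 to 0.05 without male 6 and was above 0 in each fit that left out a male. Of 20 complement genes 3 were lower (15%, median -0.18), C1qc, C7 and Serping1, and 8 had an unadjusted p under 0.05. C7, of the membrane attack complex, was at 3.59, 6.57, 5.81, 3.53 and 2.17 CPM in males and 6.82, 9.94 and 12.8 in females (log2 fold change -1.16, SE 0.229, adjusted p 0.0173), and Serping1, the C1 inhibitor, at 7.12, 5.83, 6.79, 6.01 and 4.40 and 7.61, 11.3 and 12.6 (log2 fold change -0.79, SE 0.159, adjusted p 0.0201). Neither overlapped between the sexes, female 1 was the lowest female for both, and without female 1 the list had 5 lower genes. Of 21 antigen presentation genes 1 was lower (median 0.00), RT1-A2 (-1.16, adjusted p 0.0778, called in 3 of 11 fits and at 0.188 without male 1), whose family of near-identical copies makes its counts uncertain. Among antigen presentation genes 1 was higher without female 1, and the median ran from -0.08 without male 6 to 0.07 without male 2. Of 31 interferon-stimulated genes edgeR called 0, with 7 higher at an unadjusted p under 0.05 and 0 by DESeq2, and the median was 0.23. For interferon-stimulated genes the median was 0.11 without male 5, 0.10 within the longer class and 0.45 within the shorter class, and 1 of the interferon-stimulated genes was higher without male 1 or female 1. Their summed level was 247, 325, 311, 397 and 281 CPM in males and 229.6 to 314 in females. Male 5 was highest, male 2 also lay above all females, and males 1, 3 and 6 lay within the females' range.

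Some growth factor and matrix genes were lower in males. Of 22 genes of the growth hormone, insulin and thyroid axis 4 were lower (18.2%, against 3.95% of all tested genes, median -0.28). They were Igfbp7, Igfbp2, Igf1 and Igf2, and Igfbp2 and Igf2 are also on the meninges list. Igf1, insulin-like growth factor 1, was at 4.93, 5.31, 4.75, 5.02 and 2.04 CPM in males and 4.79, 9.69 and 14.2 in females. Females 1 and 2 lay among the males, female 4 was highest and male 6 lowest (log2 fold change -1.08, SE 0.291, adjusted p 0.0677). Igfbp2, Igf1 and Igf2 were called in 4, 3 and 3 of 11 fits with 1 rat left out, with adjusted p of up to 0.155 without male 5, 0.14 without female 6 and 0.184 without male 5. The count of lower genes in this list was 1 without male 6 or without female 3, 4, 5 or 6, 2 without males 2 or 5 and 8 without female 1. Of 34 genes of extracellular matrix and perineuronal nets 5 were lower and 1 higher, the metalloprotease Mmp14 (17.6% called, median -0.01). DESeq2 called 8 lower and 3 higher. For extracellular matrix and perineuronal net genes the median ran from -0.04 without male 5 to -0.01 without female 6. Fn1, fibronectin, was at 55.5, 44.3, 47.6, 40.2 and 39.3 CPM in males and 56.5, 109 and 124 in females (log2 fold change -1.10, SE 0.187, adjusted p 0.00881). Lamb2, of basement membranes, was at 38.5, 39.3, 41.1, 47.7 and 34.8 and 51.9, 60.9 and 67.5 CPM (log2 fold change -0.58, SE 0.0850, adjusted p 0.00326). The sexes did not overlap for either, and females 1 and 2 were the lowest females for both. Lama1 and Lamb1 were lower by -0.67 and -0.76, and without female 1 or female 2 the list had 8 lower and 2 higher genes. Of 23 immediate early genes 2 were lower (median -0.25), Ccn2 at 5.99, 6.05, 4.90, 3.096 and 4.14 CPM in males and 5.98, 10.7 and 11.9 in females (log2 fold change -1.02, SE 0.195, adjusted p 0.0158) and Dusp1 (-0.67, adjusted p 0.0689, called in 4 of 11 fits and at 0.164 without male 1), which is also on the glucocorticoid list. Female 1 lay among the males for Ccn2. The median of immediate early genes was -0.15 without female 3.

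The medians of the ribosomal protein, oxidative phosphorylation, mitochondrial, cholesterol and heat shock lists ran from -0.16 to 0.04. Single ribosomal protein genes ran from -0.90 to 0.78. Of 75 cytosolic ribosomal protein genes 16 were lower and 0 higher (21.3%, against 3.95% of all tested genes), and the median was -0.15. DESeq2 called 23 lower and 0 higher, and 68 of the 75 had a log2 fold change below 0. Within the longer class the cytosolic ribosomal protein genes had a median of -0.08 with 1 called gene, a higher one, and within the shorter class -0.27 with 1, a lower one. Rps16 was at 74.8, 77.8, 85.4, 76.5 and 77.9 CPM in males and 87.3, 92.1 and 94.9 in females, without overlap (log2 fold change -0.22, SE 0.0403, adjusted p 0.0116), and Rps28 at 13.1 to 15.4 and 15.9 to 17.9 (-0.30, adjusted p 0.0254). Rpl3, the member with the most counts, had a log2 fold change of -0.10 (adjusted p 0.21). The count for cytosolic ribosomal protein genes rested on single rats, at 3 without male 1, 6 without male 2, 33 without male 3, 4 without male 5, 8 without male 6 and 8 without female 4. These genes have many near-identical processed copies, so single values are uncertain. The summed list was at 5474, 5227, 5985, 5357 and 5381 CPM in males, with male 3 high, and 5822 to 6564 in females. Of 75 nuclear genes of oxidative phosphorylation edgeR called 0, with 3 higher and 3 lower at an unadjusted p under 0.05 and 0 by DESeq2 (median -0.03). For oxidative phosphorylation genes of the nuclear genome the median ran from -0.05 without male 3 to 0.00 without female 4. Of 13 mitochondrial transcripts 1 was lower, Mt-nd4l (-0.24, adjusted p 0.0586, called in 6 of 11 fits and at 0.141 without male 5), with a median of -0.16. Of mitochondrial genome transcripts 2 were lower without male 3, 3 without females 2 or 5 and 4 by DESeq2. Their sums were 27069.7 to 33271 CPM in males, lowest in male 5, and 30880.5 to 37562 in females. Of 33 cholesterol genes edgeR called 0, with 6 higher and 1 lower at an unadjusted p under 0.05 and 1 higher by DESeq2 (median 0.04). Of cholesterol synthesis and uptake genes 2 were higher without male 2 and 1 without females 1 or 2, and the median was 0.06 without male 2. Of 37 heat shock and chaperone genes 2 were lower (median -0.01), Hspb6 at 16.6, 15.1, 15.4, 13.6 and 14.8 CPM in males and 17.5, 18.5 and 20.3 in females (log2 fold change -0.30, SE 0.0676, adjusted p 0.0278) and Dnaja4 (-0.16, adjusted p 0.0768, called in 4 of 11 fits and at 0.184 without male 1). For heat shock and chaperone genes the median ran from -0.05 without male 6 to 0.00 without male 5. Of 14 hypoxia response genes 2 were higher and 1 was lower (21.4% called, median -0.08). Pfkfb3, a glycolysis regulator, was at 87.9, 83.3, 82.5, 83.7 and 86.4 CPM in males and 72.5, 76.0 and 80.0 in females, without overlap (log2 fold change 0.16, SE 0.0371, adjusted p 0.0304). Vegfa, the vessel growth factor, was at 113, 123, 93.5, 109 and 109 CPM in males and 78.1, 89.7 and 100.3 in females (log2 fold change 0.29, SE 0.0700, adjusted p 0.0447). Vegfa was low in male 3, and it was not called without male 1 or male 2 (adjusted p 0.114 and 0.116). The lower gene was Adm (-0.63, adjusted p 0.0924, called in 3 of 11 fits and at 0.212 without male 1). Of 6 sensory ganglion genes edgeR and DESeq2 called 0 and 0 had an unadjusted p under 0.05 (median -0.13), and of 5 skeletal muscle and fat genes both called 0 with 1 lower at an unadjusted p under 0.05. The median of dorsal root ganglion and peripheral neuron genes was -0.08 without male 2, -0.08 without male 3, -0.06 without male 5 and -0.04 without female 3. The median of the skeletal muscle and fat genes was 0.52 and changed sign without male 2. It was 0.79 without male 5, 0.82 without male 6, -1.01 within the longer class, 1.06 within the shorter class and 0.04 with class as a term.

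Of the intact sex differences, few passed the test in rats without gonads. GDX males against OVX females, which share no rat with the intact groups, gave 28 calls among 15078 genes (0.186%), 13 higher and 15 lower, with 1406 at an unadjusted p under 0.05. The count was 122 by DESeq2, 14 without GDX male 2, 16 without GDX male 4, 17 without GDX male 5 or GDX male 6, 15 without OVX female 1 and 13 without OVX female 6. Of the 589 genes called in intact rats 587 were tested there, and 345 (58.8%) had the same direction, against 51.6% of all 14781 genes tested in both. The intact-higher genes had a median of 0.03 in gonadectomized rats and the intact-lower genes -0.02. Both comparisons called 9 genes, 1.53% of the intact calls and 32.1% of the gonadectomized ones, all with the same direction. These were the 5 X-linked genes, LOC680227, Sgk1, a kinase that glucocorticoids induce (-1.39 in intact and -0.65 in gonadectomized rats), Zcchc7 (0.16 and 0.24) and AABR07041096.1 (0.86 and 0.80). The last 3 are named after their values were seen. All GDX and OVX libraries are of the shorter fragment class, so gonads and the longer class cannot be told apart where the intact values come from longer-class rats.

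**Figure D5:**
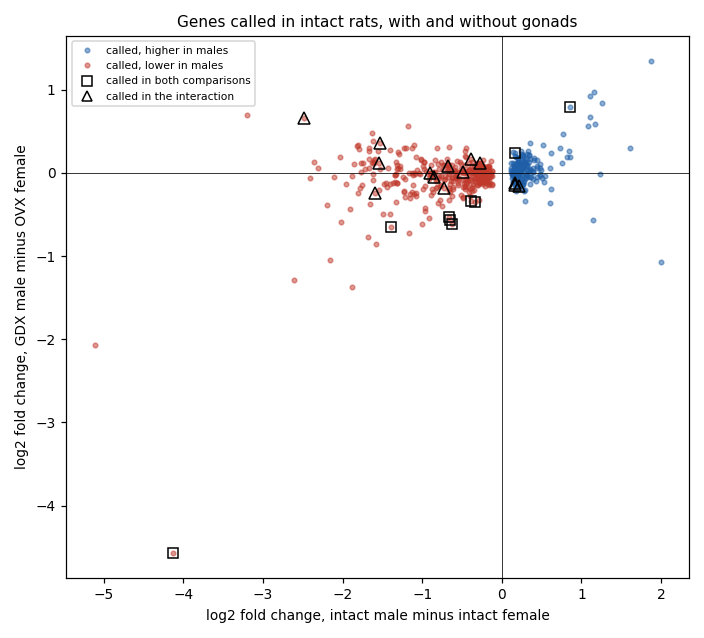
Log2 fold change in GDX males against OVX females for each of the 587 genes called in intact rats and tested in both, against its log2 fold change in intact rats, with squares for genes called in both comparisons and triangles for genes called in the test of the difference. The 5 X-linked genes called in both comparisons lie below 0 on both axes.

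The difference between the sex differences was tested over all 22 rats. The test called 18 of 15554 genes (0.116%), with 1810 at an unadjusted p under 0.05, and 14 of the 18 were also called in intact rats. Of the 5 with the smallest adjusted p, Pkp4, a plakophilin of cell junctions, averaged 846 ± 39.1 CPM in intact males, 934 ± 48.7 in intact females, 1056 ± 32.5 in GDX males and 909 ± 40.2 in OVX females (SD). The sex difference was -0.14 in intact rats, where it was not called, and 0.22 in gonadectomized rats, where it was, for a difference of -0.36 in log2 (adjusted p 0.0179). Plekhb1, of myelin and photoreceptors, averaged 673 ± 19.4, 726 ± 39.5, 815 ± 55.1 and 679 ± 31.0 CPM in the same order (-0.37, adjusted p 0.0414). Rgma, a repulsive axon guidance protein, was at 31.6, 43.5, 36.7, 41.0 and 36.4 CPM in intact males and 45.3, 49.3 and 52.2 in intact females, and averaged 50.2 ± 3.37 in GDX and 44.6 ± 4.64 in OVX rats (-0.55, adjusted p 0.063). Intact males lay below every intact female and every GDX male for Rgma and overlapped OVX females. Slc26a7, an anion transporter at 0.151 to 0.372 CPM in intact males and 0.484 to 3.24 in intact females, was at 0.805 to 3.80 in GDX and 0.966 to 1.72 in OVX rats (-3.15, adjusted p 0.063), and Slco3a1, an organic anion transporter, was higher in intact males by 0.17 and had -0.14 in gonadectomized rats (0.31, adjusted p 0.0734). The intact call of Slco3a1 held in 8 of 11 fits with 1 rat left out and was at 0.135 without male 5. Dbp was among the 18 (-0.54, adjusted p 0.0973), with gonadectomized ranges of 38.8 to 48.4 CPM in males and 45.6 to 51.7 in females. The count of 18 depended on the fit. It was 243 by DESeq2, 6 with class as a term, 275 without GDX male 1, 111 without GDX male 2, 108 without intact female 1, 44 without intact male 3 and 34 without intact female 2. It was 7, 5 and 10 without intact males 2, 5 and 6, and 2, 3, 3 and 4 without intact females 3, 4, 5 and 6. It was 5, 1 and 2 without GDX males 4, 5 and 6, and 2, 3, 6 and 3 without OVX females 2, 4, 5 and 6.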

How the data were processed

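Total RNA of ventral cord tissue from single rats was sequenced, and the authors deposited 1 table of raw read counts, in the unit count, for 32883 genes. Genes were read against the Rnor_6.0 build. The processing notes in the labels name TopHat2 2.0.13, Subread, edgeR and FastQC and a TruSeq kit, while the paper names other software for trimming and alignment and another kit, and strand and multi-mapping settings are not given. Members and gene lists were chosen with earlier results of these data known. Genes were tested with edgeR 4.0.16 (R 4.3.3) by quasi-likelihood F tests after filterByExpr, with TMM factors and sex as the term, males minus females, and adjusted by Benjamini-Hochberg over all tested genes. A gene was called at an adjusted p under 0.1. The SE given is the size of the log2 fold change divided by the square root of the F statistic. It is not a standard error taken from the fit. Levels are CPM with TMM factors over all 22 libraries. Named genes are the 10 called in each direction with the smallest adjusted p, up to 4 called members of each list by adjusted p, most members of the sex-chromosome and steroid lists, the defining markers, the most abundant member of each list and the 5 smallest of the test between sex differences. Further genes, such as the remaining called members of a list, were named after their values were seen. Alternatives were DESeq2 1.42.0, RLE factors, other filters and thresholds, fragment class or RNA integrity as a term, each class alone, a replicate block and each library left out. Promoters and figures used Python 3.11.15 and matplotlib 3.10.9. The code was tested on simulated data.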

Additional observations from a re-analysis of the deposited data

Results flagged for a closer look

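Among 132 groups of rats searched, 7 had a rat far from the rest, and chance flags about 1 in 20 groups, so the pattern is not larger than chance gives. Intact male 2 had Kdm5d at 30.6 CPM with the other males at 35.2 to 35.8, and 141 CPM summed over skeletal muscle and fat genes with the others at 7.68 to 13.2. Intact male 6 had 531 CPM over dorsal root ganglion and peripheral neuron genes, with the others at 380 to 418. Intact female 6 had Dbp at 76.5 CPM with the others at 52.6 to 59.3. Intact female 4 had 3282 CPM over GABA and glycine genes, with the others at 3369 to 3391. Intact female 5 had 7599 CPM over synaptic vesicle and exocytosis genes, with the others at 7384 to 7429, and 286 over antigen presentation genes, with the others at 352 to 377.

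The sex difference differed between intact and gonadectomized rats, by a test of the difference itself, in 18 genes. The differences in log2 were -0.36 for Pkp4, -0.37 for Plekhb1, -3.15 for Slc26a7, -0.55 for Rgma and 0.31 for Slco3a1. The others are named after their values were seen. Olfml2a was at -0.81, Cd44 at -0.51, Lama1 at -0.76 and Ahnak at -0.90. Slc6a20 was at -1.90, Cubn at -1.66, Sult1a1 at -1.36, Gzmm at -2.35 and Adar at 0.28. Gzmm was not among the genes tested between intact males and females. The remaining genes were Hopx at -0.39, Scrt1 at 0.53, Dbp at -0.54 and Lamp5 at 0.38. Fragment class and gonads cannot be told apart for the longer-class rats in this test.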

How the results depend on the processing

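The 589 calls in intact rats (209 higher, 380 lower) were within 1.5 times under DESeq2 (809), RLE factors (586), other filters (492 to 599), class or RNA integrity as a term (618 and 568) and all 22 rats in 1 fit (588). At an adjusted p under 0.05 they were 321 (97 and 224), at an unadjusted p under 0.05 2308 (1085 and 1223), in the longer class 335 (83 and 252) and in the shorter class 23 (8 and 15), where fewer rats are tested. With 1 library left out the total ranged from 335 to 767, higher genes from 96 to 258 and lower genes from 239 to 509. The labels number rats in both sexes, and a replicate block on these numbers gave 235 calls (75 and 160). Same-numbered rats did not deviate together, with correlations from -0.0969 to -0.0301 and 0 of 5 pairs best with its own number, so the numbers do not pair the rats.

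For GDX against OVX rats the 28 calls were 122 by DESeq2 and 13 to 25 with 1 library left out. For the difference of sex differences the 18 calls were 243 by DESeq2, 9 without the filter on low counts, 6 with class as a term and 1 to 275 with 1 library left out. The cause was not tested. The class effect of 1 gene was 0 to 2 with 1 library left out. The share of intact calls with the same direction in gonadectomized rats, 58.8%, was 57.2% to 61.7% under the alternatives.

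Some male minus female depth differences changed sign. Genes at 1 CPM differed by 49 in the shorter class, 7.92 without male 6 and 0.967 at 0.5 CPM, with a range of -55.6 to 7.92 with 1 library left out. The share of the top gene differed by 0.622 in the longer class, 0.0498 without male 2, 0.0863 without male 5, 0.332 without female 4 and 0.134 without female 6, with a range of -0.579 to 0.332. Library totals differed by -1660355.5 in the shorter class, with a range of -1113859 to -282596 with 1 library left out. The cause was not tested. Of 3819 alternative values for named genes, 3467 kept direction and side of the threshold, 323 lost the call, 28 gained it and 1 changed direction, Per1 in the shorter class alone, at 0.00147806 (adjusted p 0.997).

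Limits remain. With 5 and 6 rats the test finds small differences only where rats are alike. Bulk counts mix cell types, and fragment class differs among the intact rats and not among the gonadectomized. Genes at or under the floor of 3 counts per library in both sexes could not be compared, and paralogs, multi-copy families and strand could not be separated. Counts say nothing of protein.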

Other observations

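Hoxc8 and Hoxc9, homeobox genes of the brachial and thoracic cord, were named after their values were seen. In the test of whether the sex difference depends on fragment class, they had values of 3.31 and 4.82 in log2, both at an adjusted p under 0.1. Both are among the 8 genes called there. The smallest adjusted p in that test was that of LOC100360117 (4.05 in log2, adjusted p 0.000166), and LOC100911730 had -7.35. The shorter class holds 2 males and 2 females.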
